A study of Sus scrofa with 12 samples.

Results

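The comparison described here is that of cold with room temperature in the liver of the Bama pig, a small Chinese breed. Its members are the 6 Bama libraries of a series of 12, chosen by the breed and temperature in their labels, and every gene and circular RNA of the deposited tables was examined in them. The room temperature group comprised 3 pigs kept at 23 ± 2 °C and the cold group 3 pigs kept at -15 ± 2 °C, all on balanced feed, with liver taken on day 15. The other 6 libraries are liver of the Hezuo breed under the same conditions, with 3 pigs in each group, and were used for the estimate of spread and for the comparison of breeds. The pigs are numbered within each group, so each library was taken as a separate animal. The labels give neither age nor sex, no genotype or agent is named, and no time other than day 15 was labelled. Total RNA was freed of ribosomal RNA, fragmented and primed at random, so the libraries hold both linear and circular RNA. The second cDNA strand was digested.

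The liver makes most proteins of blood plasma, breaks down the amino acids that are not used for protein synthesis, passes their nitrogen to the urea cycle and supplies glucose and lipids to other organs. Cold exposure raises the demand for fuel for heat production, and hormones such as glucocorticoids adjust hepatic amino acid and glucose metabolism. Circular RNAs (circRNAs) are closed loops formed when the end of a downstream exon is joined to the start of an upstream one. They have no free ends, are more resistant to exonucleases than linear RNA, and are counted from reads across that back-splice junction.

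The gene table held 27527543 to 30188037 counts per library at room temperature and 20041285 to 27762477 in the cold, while back-splice reads numbered 54495 to 75616 and 39117 to 55179. Libraries of the same group differed by more than sampling noise, with correlations of log2 values of 0.963 to 0.977. The tissue label was checked on hepatocyte markers, which summed to 157800, 176900 and 156800 CPM at room temperature and 75960, 91550 and 141600 CPM in the cold, with the row for BAAT at 0 throughout. One imbalance precedes all results. Counts of the Y-linked helicase DDX3Y were 2, 3 and 0 at room temperature and 2284, 0 and 3769 in the cold. Among the Bama livers Y-linked RNA was thus carried by cold replicates 1 and 3 only. Each Hezuo library held 1331 to 2407 DDX3Y counts. Cold replicate 2 also stood between its group and the room temperature livers on the first principal component (37.4% of the variance), at 8.47 against 39.3 and 43.8 for the other cold livers and at most -23.7 at room temperature. Gene results were therefore also computed with Y-linked RNA as a covariate, and gene, circRNA and host results without each library in turn. Among the Bama livers that covariate varied only within the cold group. The fit with it therefore in effect compares cold replicate 2 alone with the room temperature livers. The circRNA and host results have no value with that covariate.

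Gene levels are given as CPM, the counts of a gene relative to a library size scaled by the trimmed mean of M values (TMM), in replicates 1, 2 and 3 of each group in that order. Log2 fold changes are the fitted cold minus room temperature differences with their standard error (SE). A gene was said to rise or fall when its edgeR quasi-likelihood test had a Benjamini-Hochberg adjusted p under 0.05 over all 13532 genes tested. By that rule 125 genes changed (0.924% of those tested), of which 52 rose (0.384%) and 73 fell (0.539%). Scaling by total counts in place of TMM moved the median difference of all genes from -0.01 to 0.14 and the split to 228 up and 59 down. DESeq2 called 682 genes (5.04%), all 125 among them. An unadjusted p under 0.05 was reached by 1053 genes upwards (7.78%) and 1084 downwards (8.01%). The 3 cold and 3 room temperature livers did not overlap for 121 of the 125 genes, against 21.3% of all genes tested. Of the 125 genes, 5 lie on the Y chromosome: DDX3Y, LOC100624149, LOC110255320, LOC100625207 and LOC100624329. With Y-linked RNA as a covariate the median absolute log2 fold change of the other 120 went from 1.29 to 1.13. All 120 kept their direction, which was fixed in advance, since cold replicate 2 lay beyond every room temperature liver in each of them. Their direction also held without any 1 of the 12 libraries, which is no separate support, since groups without overlap largely fix it. Adjusted p reached 0.179 in those fits, and 14 genes passed in all 12 of them. Room temperature replicate 3 decided the most calls. Of the 120 genes not on the Y chromosome, 17 passed without that library, 21 without cold replicate 3 and 31 without cold replicate 1.

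Enzymes that break down amino acids were among the listed genes that rose. Several of the lists cover such enzymes, and all were chosen with earlier results of these data known. Their number is therefore not a result in itself. Of all genes tested, 0.384% rose. In the pathway from phenylalanine and tyrosine to fumarate, 2 of 9 genes tested rose and none fell, with a list median log2 difference of 0.43 (1.11 without room temperature replicate 2) against -0.01 for all genes. HPD, which converts 4-hydroxyphenylpyruvate to homogentisate, measured 316.5, 488 and 366 CPM in the room temperature livers and 1499, 1192 and 1803 CPM in the cold livers (log2 fold change 1.94 ± 0.24 SE, adjusted p = 0.00586). HGD, which opens the ring of homogentisate in the step after HPD, measured 30.4, 91.6 and 28.6 CPM in the room temperature livers and 257, 328 and 455 CPM in the cold livers (log2 fold change 2.79 ± 0.44 SE, adjusted p = 0.02). In both, every cold liver was above every room temperature liver, and for HGD room temperature replicate 2 stood well above its group. TAT and FAH, the first and last enzymes of tyrosine breakdown, did not pass (log2 fold change 0.68, adjusted p = 0.547 and log2 fold change 0.43, adjusted p = 0.306). TDO2 opens the ring of tryptophan at the start of the kynurenine pathway. It measured 253, 308.5 and 289 CPM in the room temperature livers and 694, 605 and 706 CPM in the cold livers, with little spread in either group (log2 fold change 1.24 ± 0.19 SE, adjusted p = 0.0171). TDO2 was the 1 gene of 13 on the tryptophan and NAD list that rose, at a list median of 0.43 (0.19 without room temperature replicate 1), while KMO, a later enzyme of the same pathway, did not pass (log2 fold change 0.96, adjusted p = 0.132). HPD passed in each of the 12 fits made without 1 library. HGD and TDO2 passed in 9 and 8 of them, with adjusted p up to 0.0804 and 0.0792 without room temperature replicate 3.

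Of the enzymes of the methionine cycle and of serine and glycine use, 4 rose. On the list for serine, glycine and threonine 2 of 21 genes rose and none fell (median 0.18), and on that for methionine and one-carbon metabolism 2 of 15 rose and none fell (median 0.22). The methionine list held members in both directions. Without overlap were 3 genes upwards and 3 downwards, against 11.2% and 10.2% of all genes. An unadjusted p under 0.05 was reached by 4 upwards and 3 downwards, against 7.78% and 8.01% of all genes. Lower members included GATM and MTR, at -1.58 and -0.56 (adjusted p = 0.0683 and 0.225). GNMT, which methylates glycine with S-adenosylmethionine, measured 64.6, 199 and 65.4 CPM in the room temperature livers and 456, 526 and 590.0 CPM in the cold livers (log2 fold change 2.26 ± 0.41 SE, adjusted p = 0.0343). AHCY, which hydrolyses the S-adenosylhomocysteine left by such transfers, measured 147, 189 and 139 CPM in the room temperature livers and 279, 353 and 323 CPM in the cold livers (log2 fold change 1.01 ± 0.17 SE, adjusted p = 0.02). CBS, which joins homocysteine and serine to cystathionine, measured 79.8, 158.5 and 79.8 CPM in the room temperature livers and 290.0, 308 and 237 CPM in the cold livers (log2 fold change 1.39 ± 0.26 SE, adjusted p = 0.0343). All 3 were higher in each cold liver than in any room temperature liver, and in all 3 the highest room temperature value was that of replicate 2. SDSL, a serine dehydratase-like enzyme, measured 14.8, 26.3 and 13.2 CPM in the room temperature livers and 41.3, 38.3 and 57.3 CPM in the cold livers, again without overlap (log2 fold change 1.34 ± 0.27 SE, adjusted p = 0.0441). MAT1A, which makes S-adenosylmethionine, did not pass (log2 fold change 0.37, adjusted p = 0.413), nor did SDS, the main serine dehydratase (log2 fold change 2.74, adjusted p = 0.211), or AGXT, which transfers an amino group to glyoxylate (log2 fold change 2.44, adjusted p = 0.0778). GNMT, AHCY, CBS and SDSL passed in 6, 9, 5 and 3 of the 12 fits without 1 library. Their adjusted p was then at most 0.108, 0.095, 0.122 and 0.154, in each case without room temperature replicate 3.

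The gene annotated as mitochondrial proline dehydrogenase 1 (LOC110256626), which begins the oxidation of proline, showed a 12.4-fold higher fitted level in the cold and the lowest adjusted p among the amino acid enzymes. It measured 4.5, 3.38 and 4.2 CPM in the room temperature livers and 26.3, 62.4 and 60.9 CPM in the cold livers (log2 fold change 3.63 ± 0.33 SE, adjusted p = 0.00155). The groups were far apart, with the lowest cold liver above the highest room temperature liver several times over. With Y-linked RNA as a covariate the log2 fold change of proline dehydrogenase was 3.95, and the gene passed in all 12 fits without 1 library.

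Of 22 amino acid transporters tested 2 rose and none fell, with a median of 0.43 (0.25 without room temperature replicate 3). SLC1A2, a glutamate transporter, measured 33.3, 45.5 and 16.1 CPM in the room temperature livers and 142, 150.4 and 252 CPM in the cold livers (log2 fold change 2.52 ± 0.37 SE, adjusted p = 0.0143). SLC6A12, which takes up betaine and GABA, measured 88.8, 71.1 and 87.3 CPM in the room temperature livers and 214, 236 and 231 CPM in the cold livers (log2 fold change 1.46 ± 0.23 SE, adjusted p = 0.0192). For both genes each cold liver exceeded all room temperature livers, and the 3 cold values of SLC6A12 lay close together. SLC38A1 and SLC38A2 import glutamine and other small neutral amino acids. SLC38A1 measured 32.2, 81 and 17.9 CPM in the room temperature livers and 238, 180.3 and 188 CPM in the cold livers, without overlap, but did not pass (log2 fold change 2.21, adjusted p = 0.0832), and SLC38A2 did not either (log2 fold change 0.42, adjusted p = 0.731). SLC1A2 passed in 10 fits without 1 library, with an adjusted p of 0.0552 without room temperature replicate 1, and SLC6A12 in 9, with 0.077 without room temperature replicate 3.

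No gene of the urea cycle list passed, although its median log2 difference of 1.11 was the highest of the metabolic lists and 7 of its 10 genes had an unadjusted p under 0.05 upwards, a direction reached by 7.78% of all genes. CPS1, which makes carbamoyl phosphate from ammonia, measured 1453, 3908 and 1765 CPM in the room temperature livers and 4519, 4363 and 6263 CPM in the cold livers (log2 fold change 1.09 ± 0.33 SE, adjusted p = 0.145). ASS1, which forms argininosuccinate, measured 771, 1873 and 785 CPM in the room temperature livers and 2232, 2494 and 2796 CPM in the cold livers (log2 fold change 1.13 ± 0.32 SE, adjusted p = 0.126). ARG1, which releases urea from arginine, measured 47.8, 565 and 72.8 CPM in the room temperature livers and 719, 872 and 1133 CPM in the cold livers (log2 fold change 1.99 ± 0.73 SE, adjusted p = 0.221). In all 3, room temperature replicate 2 was far above its group, and the lowest cold liver exceeded it by a narrow margin. The members of the list summed to 4082, 8714 and 4646 CPM at room temperature and 9376, 10020 and 12980 CPM in the cold. Of 20 genes for branched-chain amino acid, lysine and histidine breakdown none passed, 16 had a positive difference and the median was 0.29. HAL, which removes ammonia from histidine, had a log2 fold change of 2.29 (0.116 as its adjusted p), and AASS, the first enzyme of lysine breakdown, one of 1.17 (adjusted p = 0.251).

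**Figure D1:**
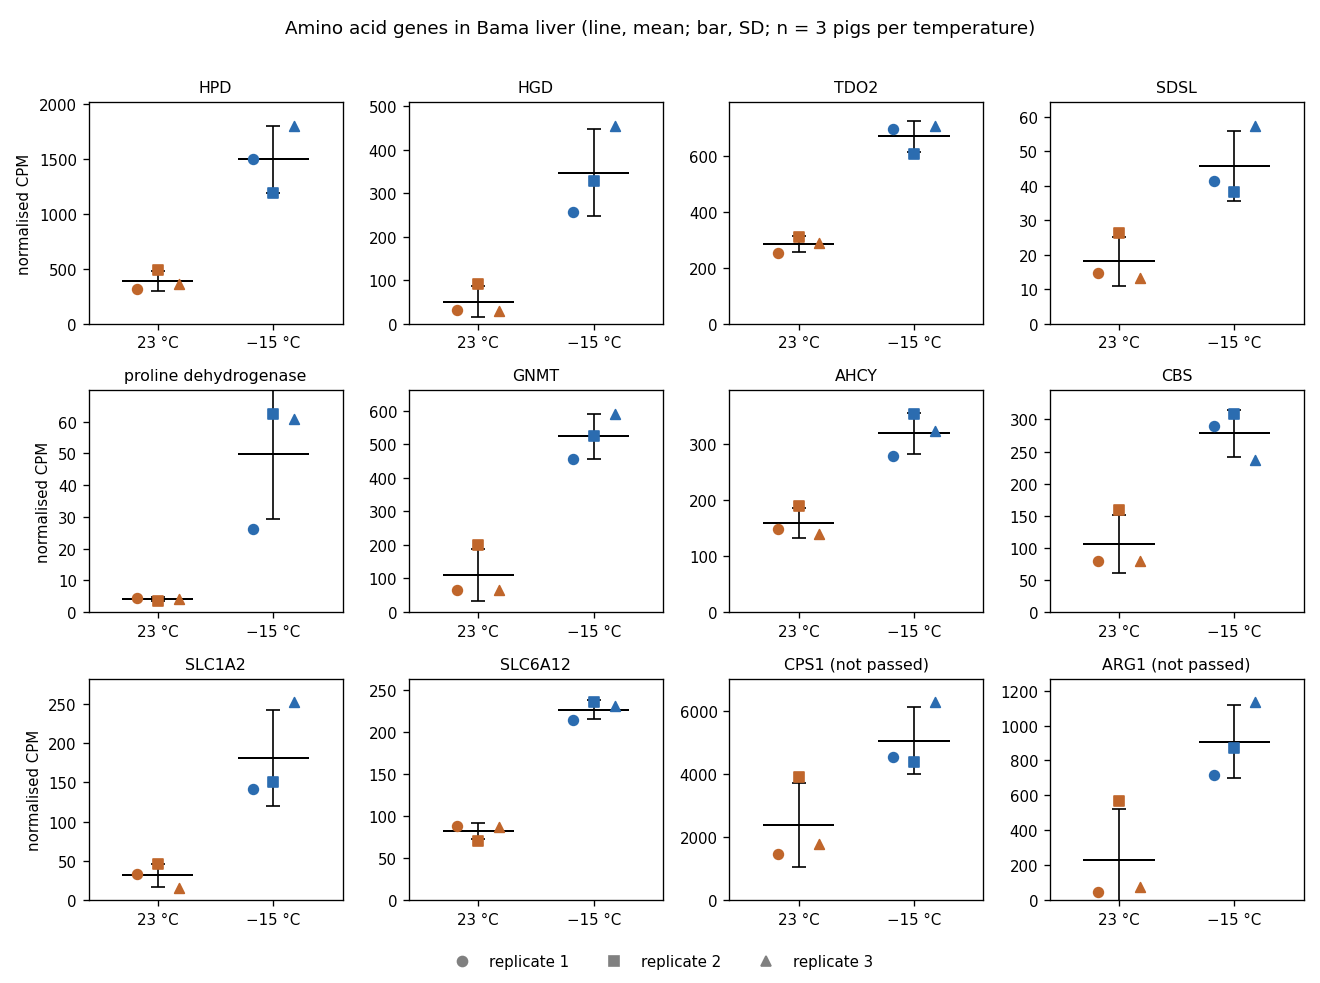
Levels of 12 genes of amino acid metabolism and transport in each Bama liver, in TMM-scaled CPM on linear axes, with room temperature and cold libraries as points, the group mean as a line and the SD as a bar. Genes that did not pass are marked, and for HGD, GNMT, CBS, CPS1 and ARG1 room temperature replicate 2 is the point nearest to the cold livers.

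Several genes for proteins that the liver secretes into plasma fell. On the list of constitutive plasma proteins 4 of 19 genes fell and none rose. Their median log2 difference was -1.10, 17 of the 19 were negative, and 14 did not overlap between the groups downwards, against 10.2% of all genes. TF, the iron carrier transferrin, measured 16840, 18050 and 21670 CPM in the room temperature livers and 5128, 7745 and 8645 CPM in the cold livers (log2 fold change -1.39 ± 0.26 SE, adjusted p = 0.0359). The heavy chains ITIH1 and ITIH2 form inter-alpha-trypsin inhibitors, which bind hyaluronan. ITIH1 measured 3949, 3854 and 4388 CPM in the room temperature livers and 1710, 2062 and 1919 CPM in the cold livers (log2 fold change -1.10 ± 0.16 SE, adjusted p = 0.0122), and ITIH2 measured 2931, 3455 and 3566 CPM in the room temperature livers and 999, 1604 and 1599 CPM in the cold livers (log2 fold change -1.24 ± 0.20 SE, adjusted p = 0.0194). All cold livers were below all room temperature livers for the 3 genes, with cold replicate 1 the lowest. SERPINA1, the protease inhibitor alpha-1-antitrypsin, was the fourth (log2 fold change -1.11 ± 0.20 SE, adjusted p = 0.0343), and it belongs to a gene family whose members can share reads. ALB, which codes for albumin, measured 78170, 88550 and 78540 CPM in the room temperature livers and 12770, 26940 and 64790 CPM in the cold livers and did not pass (log2 fold change -1.23 ± 0.52 SE, adjusted p = 0.283). Its level was lower in each cold liver, yet the cold livers spread over a wide range, and cold replicate 3 came near the room temperature group. The sum over the list was 130600, 141400 and 140200 CPM at room temperature and 34950, 57410 and 98750 CPM in the cold, and albumin took 8.24, 8.67 and 8.56% of all gene counts at room temperature and 1.53, 3.14 and 7.12% in the cold. TTR, a carrier of thyroid hormone, measured 2559, 2405 and 2487 CPM in the room temperature livers and 659, 1247 and 1571 CPM in the cold livers without overlap and did not pass (log2 fold change -1.10 ± 0.31 SE, adjusted p = 0.129). TF, ITIH1, ITIH2 and SERPINA1 passed in 3, 9, 10 and 6 fits without 1 library. Their adjusted p reached 0.121, 0.0692 and 0.0829 without room temperature replicate 3 and, for SERPINA1, 0.121 without cold replicate 3.

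Genes of blood clotting were also among those that fell. Of 32 genes tested for complement and coagulation 3 fell and none rose, 29 had a negative difference and the median was -0.32. PROC, the precursor of the anticoagulant protein C, measured 1137, 1226 and 1200 CPM in the room temperature livers and 407.5, 519.5 and 472 CPM in the cold livers (log2 fold change -1.35 ± 0.15 SE, adjusted p = 0.00242). F7, the factor that starts the extrinsic clotting pathway, measured 58.6, 54.2 and 66.4 CPM in the room temperature livers and 23.6, 27.4 and 22.5 CPM in the cold livers (log2 fold change -1.29 ± 0.16 SE, adjusted p = 0.00614). For PROC and F7 the 3 livers of each group lay close together and far from the other group, and both passed in all 12 fits without 1 library. F12, which starts contact activation, measured 367.5, 342 and 319 CPM in the room temperature livers and 165, 196 and 223.5 CPM in the cold livers (log2 fold change -0.82 ± 0.15 SE, adjusted p = 0.0358). VKORC1, which recycles the vitamin K needed for several clotting factors including F7 and protein C, stands outside the list and measured 118.5, 101 and 86 CPM in the room temperature livers and 57.7, 57.6 and 60.8 CPM in the cold livers (log2 fold change -0.79 ± 0.14 SE, adjusted p = 0.0323). Neither gene overlapped between the groups. F12 passed in 2 and VKORC1 in 5 of the fits without 1 library, with adjusted p of 0.118 and 0.1 without cold replicate 1. F2, prothrombin, and C3, the central complement component, did not pass (log2 fold change -0.44, adjusted p = 0.179 and log2 fold change -0.39, adjusted p = 0.439).

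Acute-phase proteins are those whose hepatic synthesis changes in inflammation. None of 17 tested passed, 11 were positive and 6 negative, and their median was 0.20. That median was -0.09 with Y-linked RNA as a covariate and between 0.04 (without room temperature replicate 3) and 0.63 (without room temperature replicate 2). ITIH4, a relative of ITIH1 and ITIH2 that is an acute-phase protein in pigs, measured 1847, 6552 and 1301 CPM in the room temperature livers and 14660, 7241 and 3541 CPM in the cold livers (log2 fold change 1.39 ± 0.94 SE, adjusted p = 0.513), so that cold replicate 3 lay below room temperature replicate 2. HP, haptoglobin, and SAA3, a serum amyloid A, did not pass (log2 fold change 0.58, adjusted p = 0.566 and log2 fold change -0.26, adjusted p = 0.867).

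**Figure D2:**
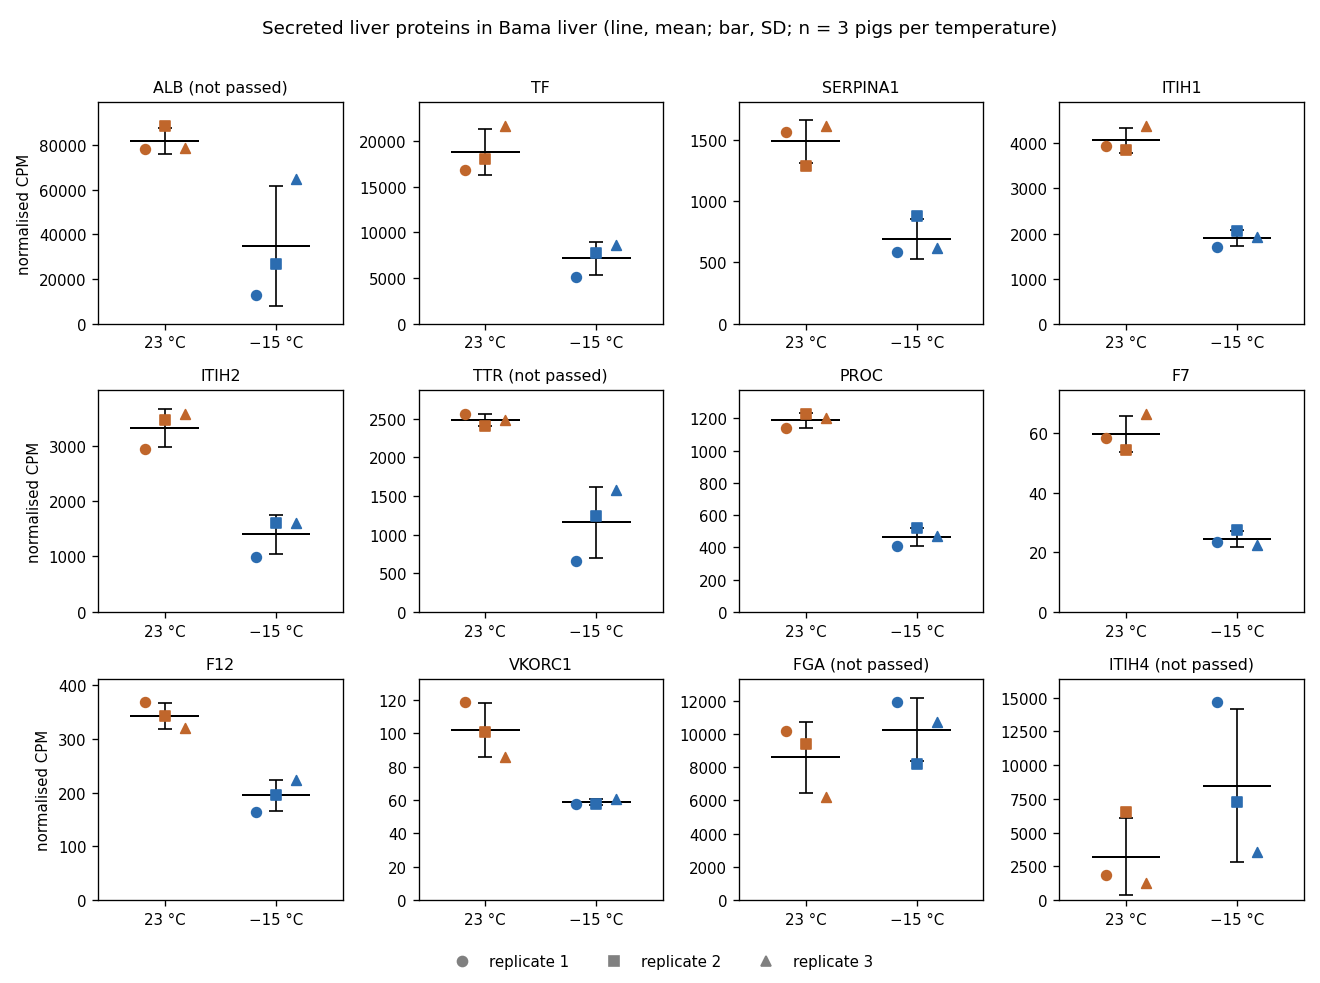
Levels of 11 genes for secreted liver proteins and of VKORC1 in each Bama liver, in TMM-scaled CPM on linear axes, with points for libraries, lines for group means and bars for SD. PROC and F7 form tight, separate groups, whereas ALB spreads from 12770 to 64790 CPM among the cold livers and ITIH4 overlaps between the groups.

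In lipid metabolism the passed genes ran in both directions. FADS2, the desaturase that starts the synthesis of long polyunsaturated fatty acids, measured 352, 412 and 389 CPM in the room temperature livers and 33.4, 60.8 and 66.4 CPM in the cold livers (log2 fold change -2.84 ± 0.39 SE, adjusted p = 0.00966). Its neighbour and partner FADS1 measured 295, 295 and 273 CPM in the room temperature livers and 28.4, 54 and 119 CPM in the cold livers and did not pass (log2 fold change -2.10 ± 0.62 SE, adjusted p = 0.139), although its groups did not overlap either. FADS2 was the 1 gene of 11 on its list that fell, no gene of the list rose, and it passed in all 12 fits without 1 library. Of 34 genes for fatty acid oxidation and ketogenesis 1 rose and 2 fell, with a median of 0.05. CROT, which moves medium-chain acyl groups shortened in peroxisomes onto carnitine, measured 61.1, 84.6 and 38.8 CPM in the room temperature livers and 257, 199 and 262 CPM in the cold livers (log2 fold change 1.96 ± 0.35 SE, adjusted p = 0.0331). The cold livers were all well above the highest room temperature liver. ACADL, a mitochondrial acyl-CoA dehydrogenase, and DECR2, a peroxisomal reductase for unsaturated fatty acids, fell (log2 fold change -1.02, adjusted p = 0.0256 and log2 fold change -0.87, adjusted p = 0.0441). PEX10, needed for import of peroxisomal enzymes, measured 9.62, 10.3 and 9.37 CPM in the room temperature livers and 5.29, 5.5 and 3.74 CPM in the cold livers (log2 fold change -1.01, adjusted p = 0.0256). HAO1, a peroxisomal oxidase that makes glyoxylate, measured 97.1, 117 and 110.2 CPM in the room temperature livers and 49, 69 and 53.4 CPM in the cold livers (log2 fold change -0.92, adjusted p = 0.0406). For both, all cold livers were below all room temperature livers. CROT, ACADL, DECR2, PEX10 and HAO1 passed in 8, 7, 1, 8 and 5 fits without 1 library. Their adjusted p rose to 0.102 (without room temperature replicate 3), 0.079 (cold replicate 1), 0.143 (cold replicate 3), 0.0849 (room temperature replicate 3) and 0.133 (cold replicate 1).

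CPT1A, which commits fatty acids to entry into mitochondria, did not pass (log2 fold change -0.12, adjusted p = 0.908). On the lipogenesis list 0 of 25 genes passed, among them FASN (log2 fold change 1.07, adjusted p = 0.512) and SCD (log2 fold change 0.74, adjusted p = 0.596). An unadjusted p under 0.05 was reached there by 4 upwards and 3 downwards, against 7.78% and 8.01% of all genes. In cholesterol synthesis and uptake 0 of 22 passed, 15 were negative and the median was -0.42, between -0.83 (without cold replicate 3) and -0.19 (without room temperature replicate 2). Of 16 bile acid genes 0 passed, and CYP7A1, the rate-limiting enzyme of bile acid synthesis, had 0.71 (adjusted p = 0.791). Apolipoproteins did not pass in any of 20 cases, APOA1 and APOA5 included (log2 fold change -0.48, adjusted p = 0.442 and log2 fold change 1.65, adjusted p = 0.199).

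Some genes for mitochondrial proteins and their regulation rose with adjusted p between 0.0343 and 0.0488, and are grouped here after their values were seen. MUT, which converts methylmalonyl-CoA to succinyl-CoA, measured 129.8, 171 and 137 CPM in the room temperature livers and 246, 275.5 and 395 CPM in the cold livers (log2 fold change 1.06 ± 0.22 SE, adjusted p = 0.0488). FH, the fumarate hydratase of the citric acid cycle, measured 141, 223 and 133 CPM in the room temperature livers and 333, 333 and 329.5 CPM in the cold livers (log2 fold change 1.002 ± 0.21 SE, adjusted p = 0.0488). IDH3A, a subunit of isocitrate dehydrogenase, measured 18.1, 16.7 and 17 CPM in the room temperature livers and 27.8, 23.9 and 30.7 CPM in the cold livers (log2 fold change 0.67 ± 0.14 SE, adjusted p = 0.0441). None of the 3 overlapped between the groups, and the cold livers of FH were nearly equal. NDUFAF6, an assembly factor of respiratory complex I, and MRPL38, a protein of the mitochondrial ribosome, rose too (log2 fold change 1.67, adjusted p = 0.0418 and log2 fold change 0.84, adjusted p = 0.0343). PERM1, a muscle regulator induced by PGC-1alpha and oestrogen-related receptors, measured 2.48, 1.41 and 2.11 CPM in the room temperature livers and 9.05, 10.1 and 24.6 CPM in the cold livers (log2 fold change 2.86 ± 0.56 SE, adjusted p = 0.0441). It was the 1 gene of 18 on the list for cold-induced RNA-binding proteins and thermogenesis that rose, while PPARGC1A (log2 fold change 0.22, adjusted p = 0.856), CIRBP (log2 fold change -0.08, adjusted p = 0.878) and RBM3 (log2 fold change -1.29, adjusted p = 0.0963) did not pass. The subunits of the respiratory chain did not pass singly. Of the 56 nuclear genes 44 were positive with a median of 0.16, and all 13 genes of mitochondrial DNA were positive with a median of 0.35. MUT passed in 0 of the 12 fits without 1 library. FH passed in 1, IDH3A, NDUFAF6 and PERM1 in 3 each, and MRPL38 in 6. Without room temperature replicate 3 the adjusted p was 0.172 for MUT, 0.179 for FH, 0.154 for IDH3A, 0.154 for NDUFAF6, 0.161 for PERM1 and 0.124 for MRPL38.

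Among the called genes are 2 subunits of the proteasome, grouped after their values were seen. PSMD14, the deubiquitinase of the proteasome lid, measured 13.4, 11.7 and 13.7 CPM in the room temperature livers and 23.7, 21.4 and 26.1 CPM in the cold livers (log2 fold change 0.88 ± 0.12 SE, adjusted p = 0.00966). The spread within each group was small beside the difference, and PSMD14 passed in all 12 fits without 1 library. PSMD11, another lid subunit, rose as well (log2 fold change 0.60, adjusted p = 0.0427), in 2 of those fits, with an adjusted p of 0.124 without cold replicate 3. All 72 cytosolic ribosomal protein genes tested had a negative difference, with a median of -0.36 that was -0.21 with scaling by total counts and -0.20 with Y-linked RNA as a covariate. None of the 72 passed, and 26 reached an unadjusted p under 0.05 downwards, against 8.01% of all genes. Heat shock chaperones (0 of 22, median 0.29) and genes of endoplasmic reticulum stress (0 of 28, median -0.08) did not pass, HSPA5 and ATF4 included (log2 fold change -0.26, adjusted p = 0.841 and log2 fold change -0.11, adjusted p = 0.839).

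In the growth hormone axis, IGFALS codes for the acid-labile subunit that holds insulin-like growth factors in their circulating complex. It measured 65.7, 77.9 and 51.8 CPM in the room temperature livers and 14.1, 12.9 and 20.9 CPM in the cold livers (log2 fold change -2.03 ± 0.21 SE, adjusted p = 0.00242). The groups were far apart and the gene passed in all 12 fits without 1 library. It was the 1 of 17 genes of the axis that fell, none rose, 13 were negative and the median was -0.28. IGF1 (log2 fold change -0.28, adjusted p = 0.527) and the receptor GHR (log2 fold change -0.61, adjusted p = 0.244) did not pass. FKBP5, a chaperone induced by glucocorticoids that dampens their receptor, measured 36.1, 35.7 and 41.4 CPM in the room temperature livers and 164, 82.6 and 155 CPM in the cold livers (log2 fold change 1.83 ± 0.33 SE, adjusted p = 0.0331). Cold replicate 2 was the lowest of the cold livers and still above the room temperature group. FKBP5 was the 1 of 24 genes on the glucocorticoid list that rose, none fell, and the median was 0.15, which turned to -0.03 with Y-linked RNA as a covariate and to -0.05 without cold replicate 1. The receptor NR3C1 (log2 fold change -0.09, adjusted p = 0.823) and its target TSC22D3 (log2 fold change -0.15, adjusted p = 0.849) did not pass. FKBP5 passed in 6 fits without 1 library, with an adjusted p of 0.102 without room temperature replicate 3.

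Of 22 cytochromes P450 and their partners 1 rose and 1 fell. POR, the reductase that supplies electrons to microsomal P450 enzymes, measured 118, 121 and 135 CPM in the room temperature livers and 252, 173 and 326 CPM in the cold livers (log2 fold change 1.01 ± 0.21 SE, adjusted p = 0.0479). CYP2A19, a porcine member of the CYP2A family, measured 1997, 2959 and 2598 CPM in the room temperature livers and 150.5, 645 and 672 CPM in the cold livers (log2 fold change -2.36 ± 0.45 SE, adjusted p = 0.0406). Neither overlapped, and for CYP2A19 cold replicate 1 was far below the other cold livers. Reads of CYP2A19 can be shared with related genes of its family. Both passed in 1 of the 12 fits without 1 library, with adjusted p of 0.142 without room temperature replicate 1 for POR and 0.109 without room temperature replicate 3 for CYP2A19. CYP2E1 did not pass (log2 fold change -0.19, adjusted p = 0.748). MGST3, a microsomal glutathione transferase, fell (log2 fold change -1.15, adjusted p = 0.0343), in 5 of those fits, with 0.121 without cold replicate 3 as its adjusted p.

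Some of the most even differences were in genes of signalling. CAMK2N1, an inhibitor of calcium/calmodulin-dependent kinase II, measured 10.7, 10.5 and 13.4 CPM in the room temperature livers and 39.9, 39.2 and 39.7 CPM in the cold livers (log2 fold change 1.78 ± 0.17 SE, adjusted p = 0.00155). ITPR3, a receptor that releases calcium from internal stores, measured 18, 20 and 20.1 CPM in the room temperature livers and 52.8, 43.7 and 42.2 CPM in the cold livers (log2 fold change 1.26 ± 0.15 SE, adjusted p = 0.00586). RASL10B, a small GTPase of the Ras family, measured 12.7, 12.7 and 13.4 CPM in the room temperature livers and 38.6, 34.9 and 51.6 CPM in the cold livers (log2 fold change 1.69 ± 0.22 SE, adjusted p = 0.00614). In all 3 the livers of each group lay within a narrow range, the groups did not overlap, and the genes passed in all 12 fits without 1 library. AMPD2, which deaminates AMP to IMP, measured 24.6, 28.3 and 22.3 CPM in the room temperature livers and 56.3, 62.8 and 88.2 CPM in the cold livers (log2 fold change 1.46 ± 0.20 SE, adjusted p = 0.0101). P2RY2, a receptor for extracellular ATP and UTP, measured 2.36, 1.97 and 1.48 CPM in the room temperature livers and 9.17, 7.4 and 16.2 CPM in the cold livers (log2 fold change 2.50 ± 0.34 SE, adjusted p = 0.00914). The cold livers exceeded the room temperature livers throughout, and AMPD2 and P2RY2 each passed in 11 fits, with adjusted p of 0.0565 and 0.0502 without room temperature replicate 3. DNER, a transmembrane ligand of Notch, measured 0.189, 0.148 and 0.442 CPM in the room temperature livers and 2.33, 7.15 and 6.53 CPM in the cold livers (log2 fold change 4.32 ± 0.58 SE, adjusted p = 0.00888), passing in all 12 fits. IL17RB, a receptor chain for interleukins 17B and 25, measured 1.19, 2.97 and 1.48 CPM in the room temperature livers and 8.5, 14 and 22.3 CPM in the cold livers (log2 fold change 2.996 ± 0.52 SE, adjusted p = 0.027). Both were scarce at room temperature and higher in each cold liver, and IL17RB passed in 9 fits, with 0.118 as its adjusted p without room temperature replicate 3.

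A further 4 genes rose by more than 4-fold on the fitted scale. TTPAL, related to the transfer protein for vitamin E, measured 8.46, 7.27 and 6.47 CPM in the room temperature livers and 37.3, 18 and 48.2 CPM in the cold livers (log2 fold change 2.22, adjusted p = 0.0441). GLTPD2, of the glycolipid transfer protein family, measured 2.45, 2.93 and 2.18 CPM in the room temperature livers and 8.71, 11 and 24.9 CPM in the cold livers (log2 fold change 2.56, adjusted p = 0.0109). SLC34A2, a phosphate transporter, measured 0.849, 0.0742 and 0.0316 CPM in the room temperature livers and 6.21, 2.95 and 11.8 CPM in the cold livers (log2 fold change 4.41, adjusted p = 0.0451). None of the 3 overlapped between the groups, and SLC34A2 was scarce, with cold values over a wide range. SPRY3, an antagonist of receptor tyrosine kinase signalling, measured 0.252, 0.371 and 1.26 CPM in the room temperature livers and 3.71, 5.68 and 15.5 CPM in the cold livers, again without overlap (log2 fold change 3.70, adjusted p = 0.0441). TTPAL, GLTPD2, SLC34A2 and SPRY3 passed in 4, 11, 2 and 2 fits without 1 library. Adjusted p then reached 0.172 and 0.0709 without room temperature replicate 3, 0.138 without cold replicate 3 and 0.127 without room temperature replicate 1.

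Among the genes that fell, MAGED1, an adaptor protein of the MAGE family, measured 95.6, 93.7 and 63.6 CPM in the room temperature livers and 33.2, 33.2 and 31.5 CPM in the cold livers (log2 fold change -1.37 ± 0.16 SE, adjusted p = 0.00586), and the 3 cold values were nearly equal. SV2C, a synaptic vesicle glycoprotein also found outside neurons, measured 8.3, 8.68 and 7.83 CPM in the room temperature livers and 2.42, 2.52 and 2.82 CPM in the cold livers (log2 fold change -1.67 ± 0.17 SE, adjusted p = 0.00155). SLC26A8, an anion transporter, measured 2.14, 2.15 and 3.09 CPM in the room temperature livers and 0.208, 0.395 and 0.361 CPM in the cold livers (log2 fold change -2.91 ± 0.36 SE, adjusted p = 0.00586). None of the 3 overlapped between the groups, and all 3 passed in all 12 fits without 1 library. KIT, the receptor for stem cell factor, measured 27.2, 31.8 and 28.2 CPM in the room temperature livers and 12.7, 14.3 and 14.8 CPM in the cold livers (log2 fold change -1.06 ± 0.17 SE, adjusted p = 0.0203). KCNMA1, the pore of a calcium-activated potassium channel, measured 81.2, 150.1 and 106 CPM in the room temperature livers and 25.9, 44.4 and 38.4 CPM in the cold livers (log2 fold change -1.63 ± 0.28 SE, adjusted p = 0.0256). The cold livers lay below the room temperature livers for both, and both passed in 9 fits, with adjusted p up to 0.0799 without cold replicate 1 for KIT and 0.0805 without cold replicate 3 for KCNMA1. UNC5D, a netrin receptor, measured 1.73, 4.45 and 8.3 CPM in the room temperature livers and 0.0417, 0.0719 and 0.164 CPM in the cold livers (log2 fold change -5.58 ± 0.96 SE, adjusted p = 0.027). The groups did not overlap, and UNC5D was close to 0 in the cold livers, so that its fitted difference rests on few counts. UNC5D passed in 8 fits with an adjusted p of 0.114 without cold replicate 1. Other large decreases were in ANGPTL7, CLDN15, LRP2BP, DNAH10 and RIMBP2, with log2 fold changes of -2.73, -2.28, -1.96, -1.88 and -1.66, and adjusted p of 0.0406, 0.0418, 0.0139, 0.0441 and 0.0407. They passed in 3, 4, 10, 1 and 5 of the 12 fits. Their adjusted p reached 0.122 and 0.133 without cold replicate 1, 0.0565 without room temperature replicate 3, and 0.138 and 0.13 without cold replicate 3.

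Fibrillar collagen genes were lower in the cold livers. On the collagen and matrix list 2 of 35 genes fell and none rose, 28 were negative and the median was -0.55. An unadjusted p under 0.05 downwards was reached by 17 of the 35, against 8.01% of all genes. COL1A2, a chain of type I collagen, measured 372, 289 and 682 CPM in the room temperature livers and 137, 181.5 and 99.3 CPM in the cold livers (log2 fold change -1.68 ± 0.34 SE, adjusted p = 0.0451). COL3A1, which forms type III collagen, measured 1192, 1154 and 2018 CPM in the room temperature livers and 471, 575 and 325.5 CPM in the cold livers (log2 fold change -1.67 ± 0.33 SE, adjusted p = 0.043). OGN, a small proteoglycan bound to collagen fibrils, measured 11.8, 11.6 and 16.8 CPM in the room temperature livers and 3.29, 5.71 and 3.61 CPM in the cold livers (log2 fold change -1.67 ± 0.35 SE, adjusted p = 0.0495). The groups did not overlap for any of them. COL1A1, the other chain of type I collagen, measured 561.5, 357 and 1241 CPM in the room temperature livers and 149, 197 and 104 CPM in the cold livers and did not pass (log2 fold change -2.26 ± 0.49 SE, adjusted p = 0.0629). Further matrix or adhesion genes that fell were NPNT, FRAS1 and SULF2 (-0.78, -1.15 and -0.74 as log2 fold changes). Beside these, the stellate cell and fibroblast markers summed to 1661, 1988 and 2137 CPM at room temperature and 1391, 1668 and 1493 CPM in the cold, 1 of 28 fell (OGN), none rose, and their median was -0.16, with DCN and LRAT not passing (log2 fold change -1.49, adjusted p = 0.107 and log2 fold change -1.33, adjusted p = 0.0849). In whole tissue, fewer cells of a type and less RNA per cell cannot be told apart. The part of stellate cell content in the collagen result was not tested. COL1A2, COL3A1 and OGN passed in 2, 5 and 3 fits without 1 library. Their adjusted p rose to 0.15 without cold replicate 3 for COL1A2 and to 0.137 and 0.172 without room temperature replicate 3 for the other two, and the calls of NPNT, FRAS1 and SULF2 ended at 0.172 and 0.095 without room temperature replicate 3 and 0.134 without cold replicate 3.

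CDH1, the epithelial cadherin of hepatocytes and bile ducts, measured 462, 492 and 600 CPM in the room temperature livers and 166, 280.0 and 217 CPM in the cold livers (log2 fold change -1.23 ± 0.26 SE, adjusted p = 0.0495). TFRC, the receptor that takes up transferrin-bound iron, measured 724, 876 and 974 CPM in the room temperature livers and 427, 273 and 369.7 CPM in the cold livers (log2 fold change -1.27 ± 0.26 SE, adjusted p = 0.0451). Both were lower in each cold liver than in any room temperature liver, both passed in 2 fits, and without room temperature replicate 3 the adjusted p was 0.171 and 0.154. TFRC is also an erythroid marker. The 14 erythroid markers with a row, of which 9 were tested, summed to 2623, 2281 and 6295 CPM at room temperature and 1154, 3895 and 610.5 CPM in the cold. The range within each group was as wide as that between them. The median of the 9 tested was -0.93, between -1.88 (without cold replicate 2) and -0.24 (without room temperature replicate 3). It turned to 0.15 with Y-linked RNA as a covariate, where TFRC was at -1.65. The erythroid share in the TFRC result was not tested. HAMP, the hepatic iron hormone hepcidin, did not pass (log2 fold change 3.48, adjusted p = 0.321), and on the list for iron handling 1 of 17 genes (TFRC) fell and none rose. On the glycogen list PHKA2, a regulatory subunit of phosphorylase kinase, was the 1 of 12 that fell (log2 fold change -1.02, adjusted p = 0.0418), in 2 fits with 0.133 without cold replicate 1 as its adjusted p, and GYS2, the liver glycogen synthase, did not pass (log2 fold change -0.44, adjusted p = 0.702). None of 22 genes for gluconeogenesis passed, PCK1 included (log2 fold change -0.45, adjusted p = 0.78).

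Interferon-stimulated genes held no call. None of 40 tested passed. An unadjusted p under 0.05 was reached by 20 upwards, against 7.78% of all genes, and by none downwards. Of the 40 genes 32 were positive, and the median was 0.71. Their sum of 3382, 2440 and 3185 CPM at room temperature and 5559, 3312 and 2700 CPM in the cold overlapped between the groups, since cold replicate 3 lay below room temperature replicates 1 and 3, and the median was 0.44 with Y-linked RNA as a covariate and 0.30 without cold replicate 1. MX1, an antiviral GTPase induced by interferon, did not pass (log2 fold change 1.61, adjusted p = 0.0984). Markers of Kupffer cells, the resident macrophages, were not called either, with 18 of the 22 tested positive. The 23 with a row summed to 6102, 5522 and 4967 CPM at room temperature and 8462, 5876 and 5958 CPM in the cold. The median of the 22 tested, 0.39, was 0.17 with that covariate and 0.15 without cold replicate 1. Among T and NK cell markers 0 of 31 passed (median -0.30), among B and plasma cell markers 0 of 14 (median -0.19), among neutrophil markers 0 of 14 (median 0.19), among sinusoidal endothelial markers 0 of 23 (median 0.03) and among cholangiocyte markers 0 of 13 (median 0.00). The hepatocyte list held 3 genes that fell and none that rose, with a median of -0.30. In the cell cycle list 34 of 36 genes were negative with a median of -0.60, and none passed. With Y-linked RNA as a covariate the medians were -0.92 for the cell cycle, -0.61 for T and NK cells, -0.40 for B and plasma cells, 0.47 for neutrophils and -0.38 for cholangiocytes. Without 1 library the T and NK median ran from -0.62 (room temperature replicate 2) to -0.05 (room temperature replicate 3) and that of the cell cycle from -0.95 (cold replicate 1) to -0.41 (room temperature replicate 3).

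**Figure D3:**
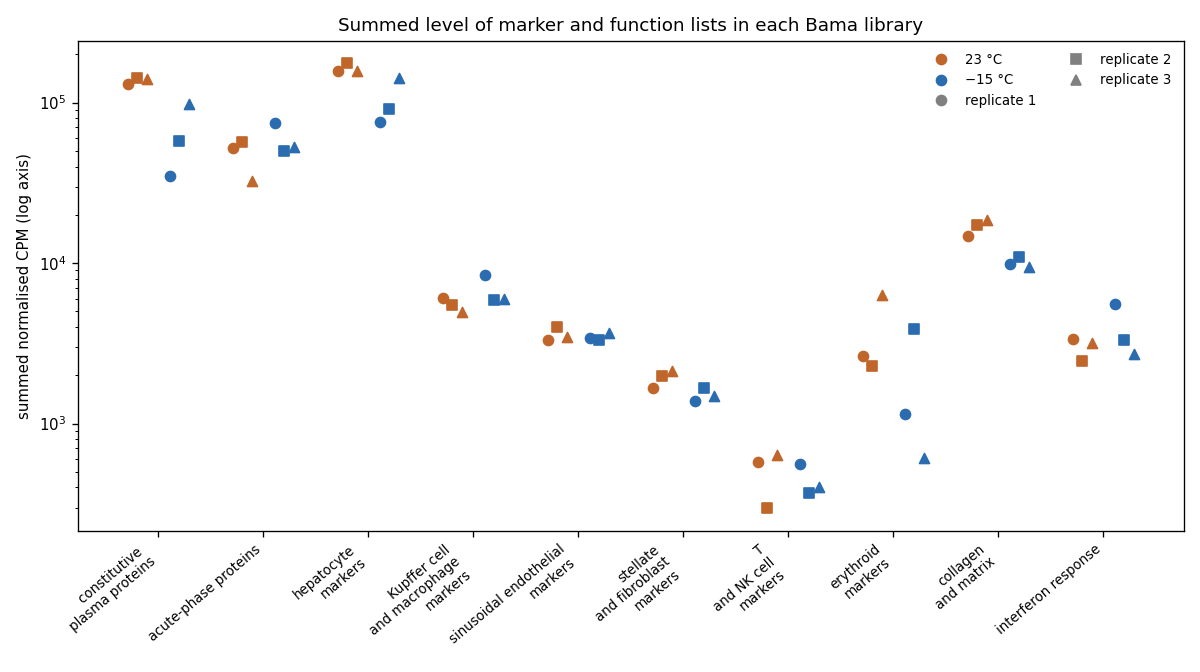
Summed TMM-scaled CPM of 10 gene lists in each Bama liver on a log axis, with room temperature and cold libraries as points. The sums of the constitutive plasma proteins, the hepatocyte markers and the collagen genes separate the groups, while those of the other lists shown overlap.

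Over all 50 lists 1053 gene rows were tested and 32 of the 125 called genes were members, where 0.924% of all genes tested were called. The lists were chosen with earlier results of these data known, so this count is not a result about them. The lists not yet named held no call: the circadian clock (median -0.07), thyroid hormone (0.12), hepatocyte transcription factors (0.05), conjugating enzymes (0.05), antioxidant and metal-binding proteins (0.12), immediate early genes (-0.35), antigen presentation (-0.29) and the factors of circRNA formation and decay (0.06). The zonation list, which repeats members of other lists, held 1 gene that rose (SLC1A2) and 1 that fell (CDH1). Medians as small as those of gluconeogenesis, clock, iron handling, apolipoproteins, endoplasmic reticulum stress, polyunsaturated fatty acid synthesis and zonation changed sign with scaling by total counts. With Y-linked RNA as a covariate those of the clock, zonation, hepatocyte transcription factors and cold-induced or thermogenic genes did, beside those of the acute-phase, glucocorticoid and erythroid lists. HNF4A, a master regulator of hepatocyte genes, and CEBPA, another, did not pass (log2 fold change 1.28, adjusted p = 0.107 and log2 fold change 0.17, adjusted p = 0.897), and neither did DIO1 (log2 fold change 0.56, adjusted p = 0.429), THRB (log2 fold change -0.50, adjusted p = 0.441) or DBP (log2 fold change -0.07, adjusted p = 0.959).

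**Figure D4:**
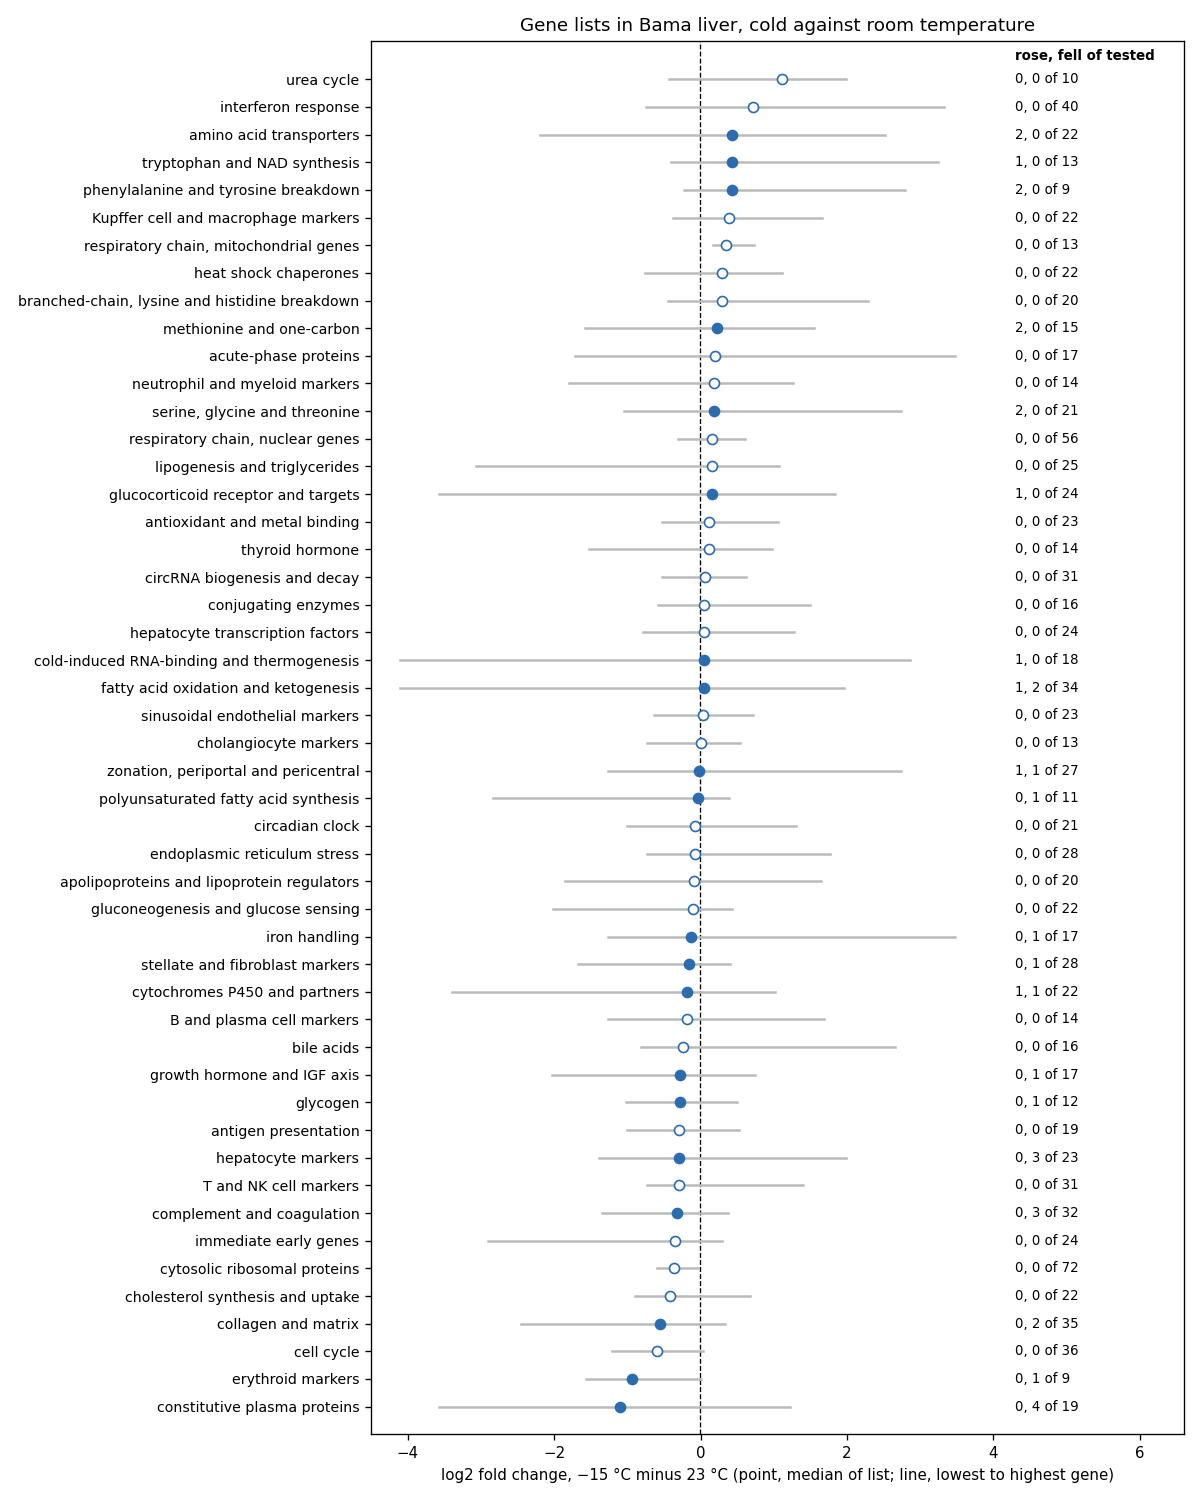
Median log2 fold change of each of 49 gene lists (points, filled where at least 1 member passed), with the lowest and highest member as a line, the numbers that rose and fell of those tested, and a dashed line at the median of all genes. Constitutive plasma proteins have the lowest median, -1.10, and the urea cycle the highest, 1.11.

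The Hezuo livers all carried Y-linked RNA, so differences of breed and of Y-linked RNA cannot be told apart in this comparison. The genes called in Bama were also read in the Hezuo livers. There, 108 of the 125 genes had the same sign (64.0% of all genes did), 123 had a smaller difference and 4 passed as well: SPATA20, PSMD14 and GLTPD2 in the same direction and MAGED1 in the opposite one. The difference between the breeds' responses passed for 1 gene, MAGED1 (0.00739% of those tested), at a log2 difference of -2.32 ± 0.23 SE (edgeR interaction, adjusted p = 0.00512), with -1.37 in Bama and 0.95 in Hezuo. An unadjusted p under 0.05 for that difference was reached by 77 of the 125 genes and 8.02% of all, but the 125 were called in Bama, so that a smaller change in Hezuo follows in part from the choice. For proline dehydrogenase (LOC110256626) the Hezuo log2 fold change was 0.80 (p for the difference 4.65e-05 unadjusted, 0.0699 adjusted). TTPAL and GLTPD2 had Hezuo values near those of Bama, 1.98 and 2.15 against 2.22 and 2.56.

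Circular RNA was also compared as a whole. Back-splice reads, in CPM of the gene counts, came to 2258, 1980 and 2600 at room temperature and 1952, 2292 and 1988 in the cold, with means of 2279.1 ± 311 and 2077 ± 187 (SD, n = 3 each). These values overlapped between the groups. The difference of -201.9 CPM had a two-sided exact permutation p of 0.6, where 0.1 is the smallest that 3 against 3 allows. It ran from -41.6 without room temperature replicate 3 to -351.6 without room temperature replicate 2. Against TMM-scaled gene counts the livers gave 2142, 2022 and 2386 CPM at room temperature and 1631, 1969 and 1810 CPM in the cold, which do not overlap, and the difference was -380.3 (exact permutation p = 0.1). Thinned to 39117 back-splice reads each, the libraries held 9065, 8681 and 9144 distinct circRNAs at room temperature and 8545, 8863 and 8318 in the cold (exact permutation p = 0.2). Circles of several annotated exons took 85.8 ± 0.63% and 85.2 ± 0.37% of the back-splice reads at room temperature and in the cold (SD, n = 3 each).

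Single circRNAs were sparse, with a median of 13 counts over the 6 Bama livers, and 14 of 9032 tested changed (0.155%), 10 up and 4 down. In 10 of the 14 the groups were separate, against 10.4% of all circRNAs tested. With the libraries scaled by their gene counts instead, the median difference moved from -0.07 to -0.305 and the split was 7 up and 7 down. The 10 most abundant circRNAs, which together held 6.4% of the back-splice reads and came from NECTIN3, TUT7, GSTO1, HIBADH, PFKFB1, ZMYND11, PSD3, PICALM, TRPM7 and ITGA9, all failed to pass. Positions below are those of the deposited table, whose genome build is not given in the sources used here, and values are back-splice counts of replicates 1, 2 and 3.

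NDFIP2, which codes for an adaptor of Nedd4-family ubiquitin ligases, was the host of 14 circRNAs, of which 9 were tested and 3 rose. All 3 begin at the same exon start on chromosome 11. The circle of 394 bases (chr11:51531489-51540684) had 92, 95 and 105 in the room temperature livers and 141, 286 and 408 in the cold livers (log2 fold change 1.84 ± 0.24 SE, adjusted p = 1.41e-10). The circle of 692 bases (chr11:51531489-51554792) had 35, 38 and 62 in the room temperature livers and 61, 112 and 302 in the cold livers (log2 fold change 2.15 ± 0.30 SE, adjusted p = 5.14e-09). The circle of 519 bases (chr11:51531489-51547197) had 25, 34 and 21 in the room temperature livers and 59, 68 and 179 in the cold livers (log2 fold change 2.24 ± 0.34 SE, adjusted p = 1.69e-07). Cold replicate 3 had the most reads of each, and for the 394-base and 519-base circles every cold liver exceeded every room temperature liver, while for the 692-base circle cold replicate 1 fell just short of room temperature replicate 3 in raw reads but not once library size was taken into account. The 394-base and 519-base circles passed in all 12 fits without 1 library, and the 692-base circle in all but the fit without cold replicate 3. Of the 6 others tested, that from the same start with 300 bases had a log2 fold change of 0.41 (adjusted p = 0.985) and that of 392 bases from a later exon 0.07 (adjusted p = 1), neither of which passed.

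The other circRNAs that rose came from SLC38A1, AASS, ITIH4, MYO16, HS2ST1 and 2 Y-linked genes. SLC38A1, the glutamine importer named above, gave a circle of 388 bases (chr5:77049090-77058522) with 7, 6 and 13 in the room temperature livers and 42, 30 and 34 in the cold livers (log2 fold change 2.46 ± 0.47 SE, adjusted p = 0.000305). AASS, the first enzyme of lysine breakdown, gave one of 1293 bases (chr18:24985702-25003037) with 30, 53 and 51 in the room temperature livers and 72, 89 and 101 in the cold livers (log2 fold change 1.33 ± 0.27 SE, adjusted p = 0.00118). ITIH4 gave one of 396 bases (chr13:34928536-34929490) with 10, 17 and 4 in the room temperature livers and 33, 37 and 30 in the cold livers (log2 fold change 2.02 ± 0.47 SE, adjusted p = 0.0133). The cold livers were above the room temperature livers in all 3. MYO16, an unconventional myosin, gave one of 479 bases (chr11:75862629-75912101) with 6, 8 and 14 in the room temperature livers and 32, 22 and 35 in the cold livers (log2 fold change 2.09 ± 0.52 SE, adjusted p = 0.0412), again without overlap. HS2ST1, a heparan sulfate sulfotransferase, gave one of 1116 bases (chr4:129108071-129134916) with 3, 0 and 4 in the room temperature livers and 2, 34 and 31 in the cold livers (log2 fold change 3.50 ± 0.77 SE, adjusted p = 0.00498), where cold replicate 1 lay within the room temperature range. The last 2 that rose are Y-linked, with reads in cold replicates 1 and 3 only. The SLC38A1 circle passed in all 12 fits without 1 library. The calls of the others ended without room temperature replicate 1 (AASS, ITIH4 and MYO16), without cold replicate 1 or room temperature replicate 3 (ITIH4 and MYO16), without cold replicate 2 (ITIH4 and HS2ST1), without cold replicate 3 or room temperature replicate 2 (MYO16 and HS2ST1), or without Hezuo room temperature replicate 3 (MYO16).

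Of the 4 circRNAs that fell, that of AKR1D1, the 5-beta-reductase of bile acid and steroid hormone metabolism, was the most abundant. It is 486 bases long (chr18:11436848-11447863) and had 254, 212 and 296 in the room temperature livers and 82, 97 and 71 in the cold livers (log2 fold change -1.19 ± 0.25 SE, adjusted p = 0.00118). It also fell in the Hezuo livers (-1.23, adjusted p = 0.00154), and in Bama it passed in all 12 fits without 1 library. CNTRL, a centriole protein, gave a circle of 1709 bases (chr1:261142021-261155614) with 37, 48 and 10 in the room temperature livers and 7, 5 and 3 in the cold livers (log2 fold change -2.30 ± 0.46 SE, adjusted p = 0.000688), where room temperature replicate 3 overlapped the cold livers once scaled by library. PECR, a peroxisomal enoyl-CoA reductase, gave one of 382 bases (chr15:118320252-118327364) with 37, 5 and 28 in the room temperature livers and 3, 4 and 1 in the cold livers (log2 fold change -2.63 ± 0.58 SE, adjusted p = 0.0045), where room temperature replicate 2 was low. CYP3A39, a P450 of a family whose members can share reads, gave one of 452 bases (chr3:6746550-6758714) with 5, 28 and 7 in the room temperature livers and 1, 1 and 0 in the cold livers (log2 fold change -3.81 ± 0.84 SE, adjusted p = 0.00498). The last 3 rest on few reads, and their calls ended without room temperature replicate 2 (CNTRL and CYP3A39), room temperature replicate 1 (PECR), cold replicate 3 (PECR and CYP3A39) or cold replicate 2 (CYP3A39).

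Summed over all circles of a host gene, back-splice counts changed for 28 of 3711 hosts (0.755%), 17 up and 11 down, and 24 of the 28 did not overlap between the groups (12.4% of all hosts tested). With scaling by gene counts the numbers were 13 up and 35 down. NDFIP2 led, with 183, 182 and 234 in the room temperature livers and 291, 503 and 908 in the cold livers (log2 fold change 1.89 ± 0.20 SE, adjusted p = 3.34e-17). The gene's own counts differed by 0.95 ± 0.28 SE on the log2 scale (adjusted p = 0.131). The log2 ratio of NDFIP2 circRNA to gene counts, in the test described below, differed by 0.82 ± 0.35 SE and did not pass (limma, adjusted p = 0.469). AKR1D1 had 381, 280 and 405 in the room temperature livers and 119, 164 and 103 in the cold livers (log2 fold change -1.03 ± 0.21 SE, adjusted p = 0.000631) against -0.82 for the gene (adjusted p = 0.0786). CDH1 had 29, 18 and 38 in the room temperature livers and 4, 9 and 3 in the cold livers (log2 fold change -1.95 ± 0.50 SE, adjusted p = 0.0163), and its gene fell as given above. MYO16 was the other non-Y host whose gene was also called, with 1.501 for its circles and 1.48 for the gene (adjusted p = 5.76e-05 and 0.0101). CTH, which splits cystathionine, and PCCA, which carboxylates propionyl-CoA in the pathway that leads to MUT, rose as hosts (log2 fold change 1.57 ± 0.36 SE, adjusted p = 0.00329 and log2 fold change 1.10 ± 0.25 SE, adjusted p = 0.00313) and did not pass as genes (1.55 and 0.67, adjusted p = 0.189 and 0.123). AASS circles rose by 1.45 and those of FDFT1, which makes squalene, and ABCA6, a lipid transporter, fell (-1.04 and -0.96). The host calls of CDH1, CTH, PCCA, FDFT1 and ABCA6 each ended without 2 or more of the Bama libraries, room temperature replicate 3 among them for CDH1, CTH and PCCA and cold replicate 3 for FDFT1 and ABCA6.

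A host's circles and its linear RNA come from 1 gene, and the changes of both were set side by side. For the 20 called non-Y hosts whose gene was tested, 19 had the same sign at the gene level, and the gene's difference was the smaller of the pair for 19. The hosts were chosen for the difference of their circles, so a smaller gene value follows in part from that choice. PECR was the exception in sign, at -1.95 for its circles and 0.27 for the gene. HS2ST1 and TMEM120B had circles at 2.45 and 1.49 and genes at 0.26 and 0.06. Over all 3669 hosts with a tested gene 55.8% had the same sign, with Pearson's r of 0.24 across genes that share libraries and depth. A limma test of the ratio of circRNA to gene counts, added after the data were seen, called 0 of 566 hosts with at least 20 counts in 6 libraries, where 55 had an unadjusted p under 0.05, and 0 of 1752 with at least 5 counts, where 103 did. PECR came nearest among the called hosts, with a log2 ratio difference of -2.14 ± 0.43 SE in the first of these (limma, adjusted p = 0.0555).

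**Figure D5:**
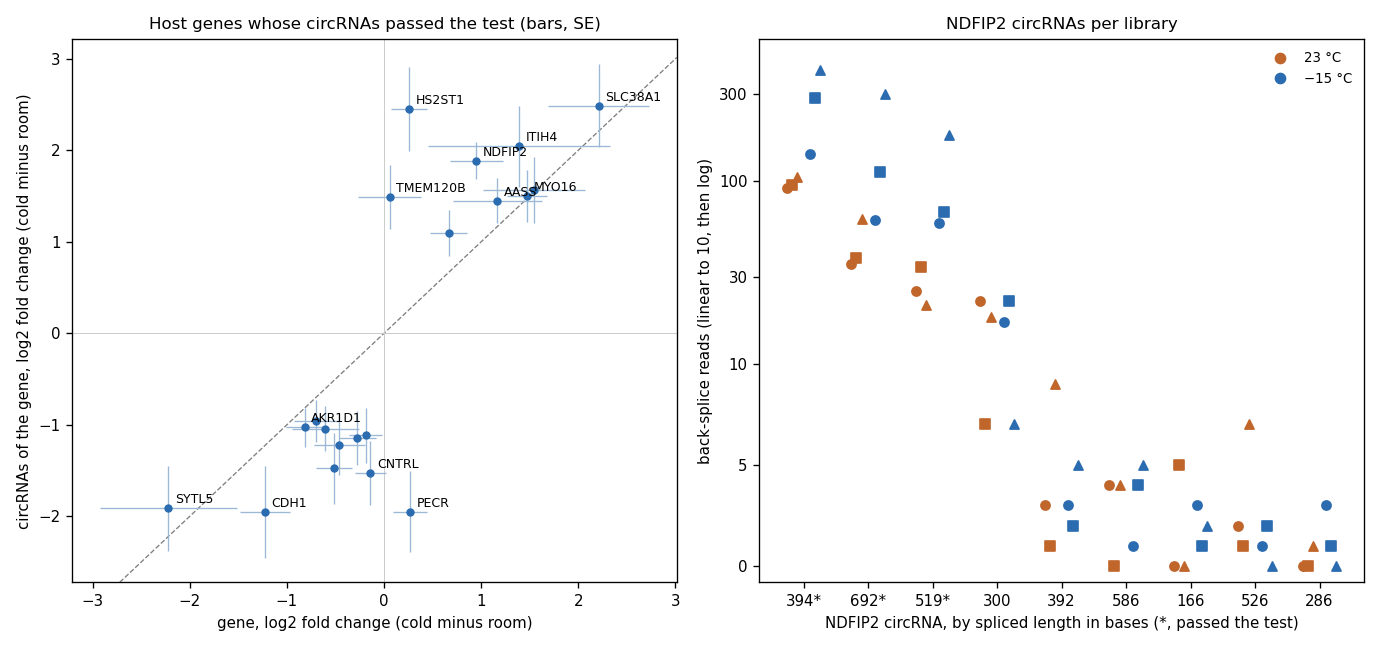
Left, log2 fold change in the cold of a host's summed circRNA counts against that of its gene for the 20 called hosts not on the Y chromosome, with SE bars. Right, back-splice counts of the 9 tested NDFIP2 circRNAs in each Bama liver, where asterisks mark the 3 that passed. For 19 of the 20 hosts the circRNA change is larger than the gene change.

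Read from the side of the genes, 43 of the 125 called genes had circRNAs in enough reads for the host test, 35 of them with the same sign for circles and gene, and 5 hosts passed, namely MYO16, CDH1 and 3 on the Y chromosome. Circles of TDO2, whose gene rose, had a log2 difference of -0.29 (adjusted p = 0.97), and those of SLC1A2 one of -0.05 (adjusted p = 0.997). Circles of TF, whose gene fell, had -1.26 (adjusted p = 0.218), and those of ITIH1 -0.23 (adjusted p = 0.992). In all 4 the host test did not pass.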

How the data were processed

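Liver total RNA of 12 pigs, 3 in each of 4 groups by breed and temperature, was sequenced after removal of ribosomal RNA. Reads were trimmed with fastp, per the submitters' processing notes, and the sources used here name no aligner, counter, circRNA caller or genome build. The authors' gene table gives estimated counts (9.48% of the nonzero values are fractional) and FPKM, and their circRNA table gives back-splice counts and deposited RPM values. The gene counts were rounded to whole numbers and tested, and FPKM and RPM served only for description. Groups and numbers came from the labels, and no column was left unmapped. Of 21169 gene rows, 17920 had a name (14940 from the table itself, 889 from an Ensembl table, 2091 from RefSeq) and 4679 had no count.

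Genes kept by edgeR's filterByExpr (minimum count 10, minimum total 15) and circRNAs with a total of 10 or more and 2 or more counts in 3 libraries entered edgeR 4.0.16 quasi-likelihood fits of the 4 groups over 12 libraries with TMM scaling (8 residual degrees of freedom), in R 4.3.3. Host counts are sums over a gene's sense circRNAs (22517 with a host, 5520 hosts). P-values were adjusted by Benjamini and Hochberg over all features tested, with 0.05 as the threshold. DESeq2 1.42.0, other scalings and filters, a fit of the 6 Bama libraries, Y-linked RNA as a covariate, a replicate block and leaving out each library were the alternatives. limma 3.58.1 tested circRNA to gene ratios (offset 0.5). Totals were compared by exact permutation, and thinning used 20 draws. Python 3.11.15 with pandas 2.3.3, numpy 2.4.6 and matplotlib 3.10.9 made the summaries and figures. The scripts were tested on simulated data. The SD are between livers. The SE come from fits of the 12 libraries in which each feature's spread was drawn towards that of other features. For circRNAs and hosts this pull was strong, so an SE can be smaller than the spread between livers of that feature implies. NDFIP2 as a host had 7700, 9499 and 18270 CPM in the cold livers, and its very low adjusted p does not carry all of that spread.

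The comparison and its gene lists were chosen with earlier results of these data known. Genes with full statistics are those called with a symbol, at least 1 CPM and no overlap that lie among the 15 greatest changes each way, called list members and key genes of each list. Other called genes were grouped by role after their values were seen. A few genes that this rule selects are not reported here.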

Additional observations from a re-analysis of the deposited data

Results flagged for a closer look

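The results listed here are those whose response to cold differed between Bama and Hezuo livers by an edgeR test of the difference itself, given as the Bama minus the Hezuo log2 fold change with its SE and the adjusted p. Those of the circRNAs and hosts were tested after the data were seen. All Hezuo livers carried Y-linked RNA, so breed and Y-linked RNA cannot be told apart in these differences. Among genes, MAGED1 differed by -2.32 ± 0.23 (adjusted p = 0.00512), with -1.37 in Bama and 0.95 in Hezuo.

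Among circRNAs, the 519-base circle of NDFIP2 differed by 2.30 ± 0.49 (adjusted p = 0.00697, 2.24 against -0.06) and the 394-base circle by 1.55 ± 0.33 (adjusted p = 0.00697, 1.84 against 0.29). The 388-base circle of SLC38A1 differed by 2.78 ± 0.66 (adjusted p = 0.0314, 2.46 against -0.32). The 452-base circle of CYP3A39 differed by -9.99 ± 1.21 (adjusted p = 3.3e-12), since it was lower in the cold in Bama (-3.81) and higher in Hezuo (6.18), on few reads in Bama. The Y-linked circles of LOC100625207 and LOC100624329 differed by 5.71 ± 1.35 and 6.69 ± 1.37 (adjusted p = 0.0314 and 0.00452), and within Bama these reads came from cold replicates 1 and 3 only.

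Summed over a host gene, the circRNAs of SLC38A1 differed by 2.80 ± 0.64 (adjusted p = 0.0157), those of NDFIP2 by 1.48 ± 0.28 (adjusted p = 0.000451) and those of MYO16 by 1.62 ± 0.40 (adjusted p = 0.0455). The Y-linked hosts LOC100624329 and LOC110255320 differed by 6.68 ± 1.35 and 6.21 ± 1.52 (adjusted p = 0.00137 and 0.0417).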

How the results depend on the processing

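Against 125 called genes, scaling by total counts called 287 (228 up, 59 down) and DESeq2 682 (324 up, 358 down, all 125 among them). The fit of the 6 Bama libraries alone called 12 (7 up, 5 down). Calls with Y-linked RNA as a covariate are not counted here, since that fit in effect leaves 1 Bama cold liver. Leaving out 1 library gave 18 (without room temperature replicate 3) to 133 (without cold replicate 2). The difference between breeds passed for 1 gene, for 139 with DESeq2 and for 1 to 23 without 1 library. Among 28 hosts, scaling by gene counts gave 48 (13 up, 35 down), and leaving out 1 library 15 to 36, while the 14 circRNAs were 10 to 17. The cause of these differences was not tested, except that fits of fewer libraries have fewer degrees of freedom.

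The replicate numbers were not taken as pairs, since the labels tie same-numbered pigs of different groups to nothing shared and their deviations correlated at 0.137, 0.148 and 0.022 in Bama and -0.083, 0.078 and -0.014 in Hezuo, not all above the 0.1 required. As a hint from the data towards pairing, the own number correlated best in 3 of 3 Bama cases, and in 1 of 3 Hezuo cases. With the replicate block 67 genes passed (30 up, 37 down), and the total of circRNA reads and the thinned number had sign-flip p of 0.75 and 0.5, where 0.25 is the smallest possible with 3 pairs.

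Among called genes, circRNAs and hosts, directions reversed in 3 cases, all Y-linked and with Y-linked RNA as a covariate: LOC100624149 (-1.01), LOC100625207 (-3.87) and DDX3Y (-3.63). Of 5520 recomputed values of 260 single genes, circRNAs and hosts, 4255 stayed on the same side of the threshold, 1230 kept direction and were no longer called, and 32 became called. The sign of 30 named features that were not called changed under at least 1 alternative, as that of HBB from -0.91 to 0.34 and that of CIRBP from -0.08 to 0.20 with Y-linked RNA as a covariate. Sparse circRNAs limit what could be detected, as 3088 of those tested had under 10 counts in the 6 Bama livers.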

Other observations

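Some called genes not described above are given here by log2 fold change only, and were picked after their values were seen. Those that fell include the chromatin proteins SMARCA1 (-1.38) and HMGN1 (-0.74) and the DNA repair proteins RAD51B (-1.31) and FANCL (-0.67). They also include COPG2 of the COPI coat (-0.73), HPS1 of lysosome-related organelles (-0.77), REEP6 of the endoplasmic reticulum (-1.15) and GPAA1, which attaches GPI anchors (-0.56). ANG, the secreted ribonuclease angiogenin (-0.93), FNDC5, the precursor of irisin (-1.49), ACVR1, a receptor of bone morphogenetic proteins (-0.83), and PAQR9 (-1.35) also fell. PIK3C2G, a lipid kinase of the liver (1.29), HCN2, a cation channel (1.21), TRIB2, a pseudokinase (0.69), and the deubiquitinase USP32 (0.54) rose.

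Some genes that did not pass had large differences without overlap and were picked after their values were seen. SERPINA6, which codes for the glucocorticoid-binding globulin of plasma, measured 143, 272.5 and 186 CPM in the room temperature livers and 8.63, 36.7 and 5.48 CPM in the cold livers (log2 fold change -3.57 ± 0.78 SE, adjusted p = 0.0685). GATM, the first enzyme of creatine synthesis, measured 1164, 1689 and 1000 CPM in the room temperature livers and 334, 693 and 260.4 CPM in the cold livers (log2 fold change -1.58 ± 0.35 SE, adjusted p = 0.0683). In both, every cold liver was below every room temperature liver. HNF4A, the hepatocyte transcription factor, measured 182, 119 and 181 CPM in the room temperature livers and 358, 295 and 519 CPM in the cold livers (log2 fold change 1.28 ± 0.34 SE, adjusted p = 0.107), with every cold liver above every room temperature liver.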
